A study of Mus musculus with 6 samples.

Results

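The enzymes that remove superoxide, hydrogen peroxide and lipid peroxides, together with 2 inducible enzymes of the same defence, were followed in fibrotic mouse kidneys through 10 genes: the superoxide dismutases Sod1, Sod2 and Sod3, catalase (Cat), the glutathione peroxidases Gpx1, Gpx3, Gpx4 and Gpx6, heme oxygenase 1 (Hmox1) and the quinone reductase Nqo1. A gene was taken where the array's annotation gave a row exactly 1 symbol and that symbol was the gene's own. All 10 were found among the 20416 genes measured, on 72 of the 212097 rows that carried 1 symbol. A row is 1 probe set, a group of probes that reads about 1 exon, and is called an exon row below.

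Gene expression was measured with 6 Affymetrix arrays on total RNA of kidneys, 3 arrays in each of 2 groups. All 6 samples are labelled TGFbeta, the fibrogenic cytokine, and induced renal fibrosis. B6-TGFbeta (replicates 1, 2 and 3) is named for the B6 background and also carries the word WT. CBAxB6-TGFbeta (replicates 4, 5 and 6) takes its name from CBA and B6 and also carries the word KO, with no gene named for it. The labels describe cohorts of littermates matched for age and sex, and give neither the age or sex itself nor how TGF-β1 was raised. No array came from mice without TGFbeta, so what set the groups apart before fibrosis and what arose during it cannot be told apart. The background and whatever KO stands for cannot be told apart either. Nothing says that each array is a separate animal, and the p-values then measure only the spread between these samples, which may be technical. In bulk kidney RNA, fewer cells of a type and less RNA per cell cannot be told apart.

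As background, superoxide dismutases turn superoxide into hydrogen peroxide: Sod1 in the cytosol with copper and zinc, Sod2 in the mitochondrial matrix with manganese, and Sod3 outside the cell. Catalase in peroxisomes and the glutathione peroxidases then reduce the peroxide, the latter at the cost of glutathione that is recycled with NADPH. Proximal tubule cells are rich in mitochondria and peroxisomes and are a main site of these enzymes in the kidney. Hmox1 and Nqo1 are classical targets of the transcription factor NRF2 (gene Nfe2l2), and Hmox1 is also strongly expressed by macrophages that break down heme.

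Several arrays stood apart in markers of tissue around the kidney. The mean log2 intensity over 8 adrenal markers was 6.52 in B6-TGFbeta replicate 1 and 8.47 in replicate 2, against 5.54 to 5.62 in the CBAxB6-TGFbeta arrays and 5.60 in B6-TGFbeta replicate 3. Star, the cholesterol carrier of steroid-making cells, read 8.90 and 10.74 in B6-TGFbeta replicates 1 and 2. Fat markers were high in B6-TGFbeta replicate 2, with Ucp1 of brown fat at 10.93, and Alb of liver was at 9.45 in that array and at 10.94 in CBAxB6-TGFbeta replicate 6. Some of the differences below are therefore also given without single arrays. Those of Cat, Gpx6, Sod2 and Sod3 are also given with B6-TGFbeta replicate 3 as the only array of its group. Kidney tubule markers were present on all arrays: the mean over 16 proximal tubule markers was 10.75, 10.58 and 10.55 in B6-TGFbeta and 9.08, 9.47 and 9.63 in CBAxB6-TGFbeta. Array medians lay between 7.27 and 7.34. As a gauge of signal without expression, 979 olfactory receptor genes had a median log2 intensity of 4.35 and a 95% quantile of 6.02, and the lowest value of any of the 10 enzymes on any array was 6.61.

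The start regions of 3 genes that were lower in CBAxB6-TGFbeta kidneys are shown to set their DNA side by side. Each line gives the 250 bases before the transcription start in RefSeq (GRCm38.p6), 5′ to 3′ on the gene's strand: Cat at chr2:103485154-103485403 on the minus strand, Gpx6 at chr13:21311953-21312202 on the plus strand and Sod2 at chr17:13007589-13007838 on the plus strand. Capitals mark every GC box (GGGCGG) and CCAAT box (CCAAT) on either strand.
Cat: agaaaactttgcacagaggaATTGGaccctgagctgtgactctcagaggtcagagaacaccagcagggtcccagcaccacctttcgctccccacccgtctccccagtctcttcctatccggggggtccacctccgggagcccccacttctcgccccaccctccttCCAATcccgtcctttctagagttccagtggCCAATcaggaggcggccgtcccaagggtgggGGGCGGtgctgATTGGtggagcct
Gpx6: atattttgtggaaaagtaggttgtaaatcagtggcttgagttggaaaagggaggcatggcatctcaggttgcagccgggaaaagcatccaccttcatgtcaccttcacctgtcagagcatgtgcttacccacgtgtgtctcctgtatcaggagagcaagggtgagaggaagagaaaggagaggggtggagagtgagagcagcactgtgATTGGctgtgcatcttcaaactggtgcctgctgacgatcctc
Sod2: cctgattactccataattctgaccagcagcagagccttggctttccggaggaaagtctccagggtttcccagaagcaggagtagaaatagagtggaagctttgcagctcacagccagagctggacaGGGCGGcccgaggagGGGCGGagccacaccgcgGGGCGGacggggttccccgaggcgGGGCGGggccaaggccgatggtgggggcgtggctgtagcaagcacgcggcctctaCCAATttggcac
Cat held 1 GC box and 4 CCAAT boxes, Gpx6 held no GC box and 1 CCAAT box, and Sod2 held 4 GC boxes and 1 CCAAT box. Of 32851 windows of this length in the table, 32.7% held a GC box and 33.8% a CCAAT box, so either is common. A window was in the table for 8 of the 10 genes, 11 windows in all, and not for Sod3 or Hmox1. The core of the antioxidant response element, the site that NRF2 binds (TGACNNNGC, either strand), was in 1 of these 11 windows, that of Sod1, and in 10.2% of all windows. These matches describe letters in a short window and were not tested as sites.

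Across the 10 enzymes, 4 were lower in CBAxB6-TGFbeta kidneys past the threshold of an adjusted p of 0.05 (Cat, Gpx6, Sod2 and Sod3), none was higher, and 6 did not pass. Of all genes, 7.65% passed, 4.57% lower and 3.08% higher. At an unadjusted p under 0.05, limma gave 1 enzyme higher and 6 lower. The share of all genes or exon rows at that level is not given, so such counts stand without a background here and below. Differences are given throughout as log2 intensity in CBAxB6-TGFbeta minus B6-TGFbeta, from limma with Benjamini-Hochberg adjustment over all genes. The log2 difference was below 0 in 8 of the 10, as in 46.1% of all genes, and the groups did not overlap in 6, as in 26.8% of all genes. The median log2 difference was -0.39 over the 10 and 0.02 over all genes. The 10 were chosen with earlier results of these data known, so their shares are not independent of the data.

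**Figure D1:**
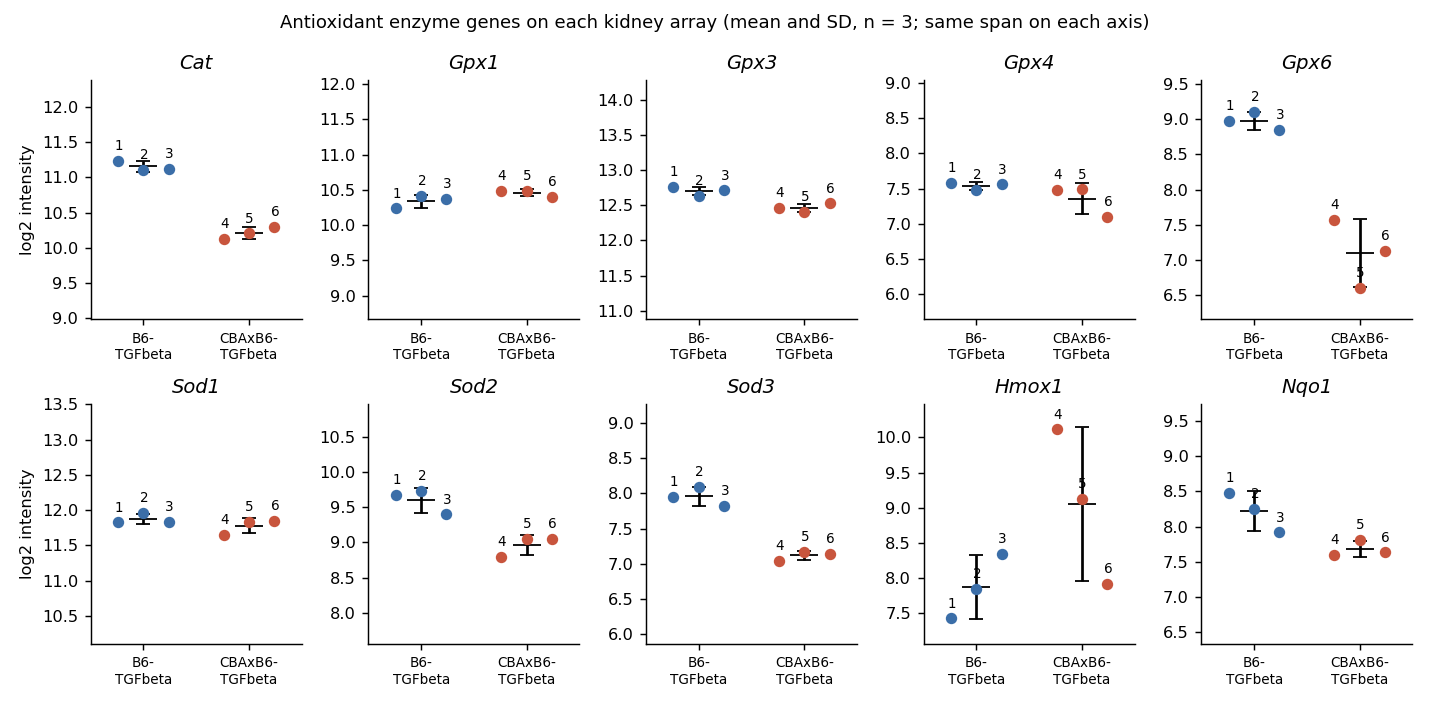
Log2 intensity of each enzyme gene on each of the 6 kidney arrays. Points are arrays with their replicate numbers, bars are mean and SD (n = 3), and every panel spans the same number of log2 units. The 3 CBAxB6-TGFbeta arrays lie below the 3 B6-TGFbeta arrays for Cat, Gpx3, Gpx6, Sod2, Sod3 and Nqo1, while Hmox1 spreads from 7.92 to 10.11 within CBAxB6-TGFbeta.

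Of the superoxide dismutases, the mitochondrial and the extracellular enzyme were lower in CBAxB6-TGFbeta kidneys and the cytosolic one did not pass the test. Sod2 read 9.67, 9.73 and 9.40 in B6-TGFbeta replicates 1, 2 and 3 and 8.80, 9.05 and 9.05 in CBAxB6-TGFbeta replicates 4, 5 and 6. Every CBAxB6-TGFbeta array lay below every B6-TGFbeta array, with B6-TGFbeta replicate 3 the closest to the other group. The means were 9.60 ± 0.18 and 8.97 ± 0.15 (SD, n = 3 each), which is a log2 difference of -0.63 (SE 0.12, 95% interval -0.91 to -0.36), 1.55-fold lower, with an adjusted p of 0.0165 in limma. This was the least stable of the 4 calls: leaving out any 1 array gave -0.69 to -0.51 with adjusted p from 0.10 to 0.225 (limma), and B6-TGFbeta replicate 3 alone against the other group gave -0.34 (0.544).

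Sod3, the secreted dismutase that binds to matrix and vessel walls, read 7.95, 8.08 and 7.83 in B6-TGFbeta and 7.05, 7.17 and 7.14 in CBAxB6-TGFbeta. The groups were well apart, and the CBAxB6-TGFbeta arrays lay close together. The means were 7.95 ± 0.13 and 7.12 ± 0.065 (SD, n = 3 each), which is a log2 difference of -0.84 (SE 0.10, 95% interval -1.07 to -0.60), 1.78-fold lower, with an adjusted p of 0.0021 in limma. The call was lost without B6-TGFbeta replicate 1, 2 or 3, at -0.71, -0.83 and -0.88 with adjusted p of 0.184, 0.0990 and 0.0942 (limma), and was kept without each CBAxB6-TGFbeta array.

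Sod1, the copper and zinc enzyme of the cytosol, read 11.83, 11.95 and 11.83 in B6-TGFbeta and 11.65, 11.83 and 11.85 in CBAxB6-TGFbeta. The groups overlapped. The log2 difference was -0.09 (SE 0.10, adjusted p 0.67 in limma), and its 95% interval of -0.32 to 0.14 leaves out a fall of the size seen in Sod3 but does not show that the groups were alike. Ccs, the chaperone that loads copper into Sod1, stood at -0.33 on the same scale (SE 0.10, adjusted p 0.085 in limma) and did not pass.

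Catalase was lower in CBAxB6-TGFbeta kidneys by close to 1 log2 unit. Cat read 11.24, 11.10 and 11.12 in B6-TGFbeta and 10.13, 10.20 and 10.30 in CBAxB6-TGFbeta. Within each group the arrays lay within a narrow band, and the gap between the groups was several times wider than either band. The means were 11.15 ± 0.073 and 10.21 ± 0.084 (SD, n = 3 each), which is a log2 difference of -0.94 (SE 0.097, 95% interval -1.16 to -0.72), 1.92-fold lower, with an adjusted p of 0.00089 in limma. Without B6-TGFbeta replicate 1, 2 or 3 the difference was -0.93, -0.99 and -0.97 and the adjusted p 0.0628, 0.0528 and 0.0561 (limma), so the size held while the call did not. With B6-TGFbeta replicate 3, the array of its group with the fewest signs of adrenal or fat tissue, as the only array of its group, it was -0.96 (adjusted p 0.109 in limma), the single array being assumed to vary like the others.

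Of the 4 glutathione peroxidases 1 passed, Gpx6. Gpx6, best known from olfactory tissue, had the largest difference of the 10 genes. It read 8.98, 9.11 and 8.85 in B6-TGFbeta and 7.57, 6.61 and 7.13 in CBAxB6-TGFbeta. All 3 CBAxB6-TGFbeta arrays lay far below the other group and also apart from each other. The means were 8.98 ± 0.13 and 7.11 ± 0.48 (SD, n = 3 each), which is a log2 difference of -1.87 (SE 0.21, 95% interval -2.34 to -1.40), 3.67-fold lower, with an adjusted p of 0.0012 in limma. It kept the call only without CBAxB6-TGFbeta replicate 4 (-2.13, adjusted p 0.0302 in limma). Without each other array in turn it gave -1.88 to -1.59 with adjusted p from 0.0546 to 0.105 (limma).

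Gpx3, the glutathione peroxidase that the proximal tubule secretes into plasma, read 12.76, 12.64 and 12.71 in B6-TGFbeta and 12.46, 12.40 and 12.53 in CBAxB6-TGFbeta. The groups did not overlap, but the difference of the gene summary was small, at -0.24 (SE 0.093, 95% interval -0.45 to -0.03), and did not pass (adjusted p 0.174 in limma). The 3 brightest Gpx3 exon rows, with mean log2 intensities of 12.6 to 13.1, gave -0.25 to -0.07. The other 3, with mean log2 intensities of 11.11, 11.05 and 12.53, gave -0.81, -0.54 and -0.17. With the mean over rows Gpx3 stood at -0.33 (adjusted p 0.078 in limma). Why its bright rows differed less was not tested.

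Gpx1, the most widespread glutathione peroxidase of the cytosol, read 10.24, 10.41 and 10.37 in B6-TGFbeta and 10.49, 10.49 and 10.40 in CBAxB6-TGFbeta. The groups overlapped, and the log2 difference was 0.12 (SE 0.096, 95% interval -0.10 to 0.34, adjusted p 0.54 in limma). Gpx4, which reduces lipid peroxides in membranes and holds back ferroptosis, read 7.59, 7.48 and 7.56 in B6-TGFbeta and 7.48, 7.49 and 7.10 in CBAxB6-TGFbeta. Its groups overlapped, the lowest array being CBAxB6-TGFbeta replicate 6, and its log2 difference was -0.18 (SE 0.12, 95% interval -0.46 to 0.09, adjusted p 0.44 in limma). The Gpx4 difference was -0.01 without that array and -0.28 without CBAxB6-TGFbeta replicate 4.

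The inducible pair did not pass, and their differences had opposite signs. Hmox1, which splits heme into biliverdin, iron and carbon monoxide, read 7.43, 7.85 and 8.34 in B6-TGFbeta and 10.11, 9.12 and 7.92 in CBAxB6-TGFbeta. Replicates 4 and 5 lay above all of the other group, while replicate 6 lay inside its range. The means were 7.87 ± 0.46 and 9.05 ± 1.10 (SD, n = 3 each), which is a log2 difference of 1.18 (SE 0.46, 95% interval 0.14 to 2.22), with an adjusted p of 0.173 in limma. It was 1.69 without replicate 6 and 0.62 without replicate 4, with adjusted p of 0.0934 and 0.453 (limma). The mean over 12 macrophage and dendritic cell markers was 7.26, 7.61 and 7.43 in B6-TGFbeta and 8.80, 8.19 and 8.41 in CBAxB6-TGFbeta, so replicate 4 was highest for both the markers and Hmox1, while replicate 6, second for the markers, was the lowest of its group for Hmox1. The part of these cells in the Hmox1 values was not tested.

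Nqo1, which reduces quinones with NADPH or NADH, read 8.48, 8.25 and 7.92 in B6-TGFbeta and 7.60, 7.81 and 7.63 in CBAxB6-TGFbeta. The groups did not overlap, with B6-TGFbeta replicate 3 close to CBAxB6-TGFbeta replicate 5. The log2 difference was -0.54 (SE 0.14, 95% interval -0.86 to -0.21) and its adjusted p of 0.056 in limma missed the threshold. With 1 array left out in turn it ran from -0.76 without B6-TGFbeta replicate 3 to -0.30 without B6-TGFbeta replicate 1, and it was -0.35 without CBAxB6-TGFbeta replicate 5.

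**Figure D2:**
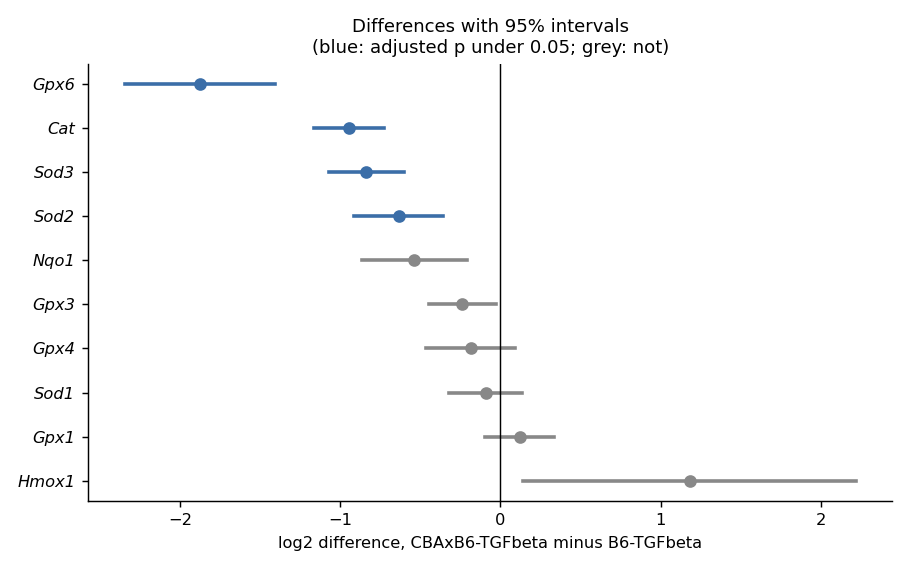
Log2 difference of each enzyme gene, CBAxB6-TGFbeta minus B6-TGFbeta, with 95% intervals from limma. Blue marks an adjusted p under 0.05 and grey the rest; Gpx6, Cat, Sod3 and Sod2 lie below 0, from -1.87 to -0.63, and Hmox1 has the widest interval, 0.14 to 2.22.

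Most markers of tubule segments were, like Cat, Gpx6, Sod2 and Sod3, lower in CBAxB6-TGFbeta kidneys. Of 16 proximal tubule markers 12 were lower in CBAxB6-TGFbeta past the threshold, with a median log2 difference of -1.03. At an unadjusted p under 0.05 14 of them were lower and 0 higher in limma. Of 12 markers of the loop, distal tubule and collecting duct 7 were lower (median -0.74), and 7 of 8 tubular injury markers were higher (median 1.82). Of the 12 macrophage and dendritic cell markers 7 were higher (median 0.92). The part of these shifts in the values of Cat, Gpx6, Sod2 and Sod3 was not tested. None of the 8 adrenal, 9 fat or 6 liver markers passed in limma; at an unadjusted p under 0.05 3 adrenal markers were lower, and 0 fat or liver markers differed.

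The exon rows showed whether a gene's difference ran along the whole transcript. Over all 212097 rows 0.63% passed, 50.1% were below 0 and in 20.8% the groups did not overlap. Of the 72 rows of the 10 genes 4 passed, 1 of Cat and 3 of Gpx6, all lower. With any 1 array left out 0 of the 72 passed, beside 0 to 331 of all 212097 rows. In those settings 28 to 44 of the 72 had an unadjusted p under 0.05 in limma, with no share of all rows to set beside them. All 16 Cat rows were lower, from -1.46 to -0.32, and the groups did not overlap in 14. The 4 brightest Cat rows, with mean log2 intensities of 12.2 to 12.9, gave only -0.55 to -0.38, while the other 12 had a median of -1.14. These 4 were also neighbours in probe set order, rows 2 to 5 of 16, so brightness and position cannot be told apart. Row 1, at -0.32, had a mean of 5.58, under the olfactory gauge of 6.02. With the brightest row alone in place of the gene summary, Cat stood at -0.40 with an adjusted p of 0.157 (limma). Why the bright rows differed less was not tested.

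All 5 Gpx6 rows were lower, from -2.22 to -1.38, with no overlap of the groups in any. Sod2 was lower in 8 of 8 rows (-1.02 to -0.05) and Sod3 in 5 of 5 (-1.07 to -0.14), with no overlap in 6 and 4 of them. The smallest difference of Sod2 came from its dimmest row, whose mean of 5.65 lay under the olfactory gauge of 6.02. In all, 5 of the 72 rows lay under that gauge, 1 each of Cat, Gpx4, Sod2, Sod3 and Nqo1. Nqo1 was lower in 7 of 7 rows (-0.92 to -0.08), Gpx3 in 6 of 6 (-0.81 to -0.07), Gpx4 in 9 of 9 (-0.39 to -0.11) and Sod1 in 4 of 5 (-0.18 to 0.10), and none of these rows passed. For Nqo1 the brightest row was the one at -0.08.

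Gpx1 was higher in 3 of 3 rows (0.14 to 0.40) and Hmox1 in 8 of 8 (0.38 to 1.62), again with no row past the threshold. In Hmox1 CBAxB6-TGFbeta replicate 4 was the highest array in all 8 rows, while replicate 6 was the lowest of all 6 arrays in 4 rows and B6-TGFbeta replicate 1 in the other 4. The rows of a gene share the same RNA and are not replicates. One pair of Gpx4 rows held the same values on every array.

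**Figure D3:**
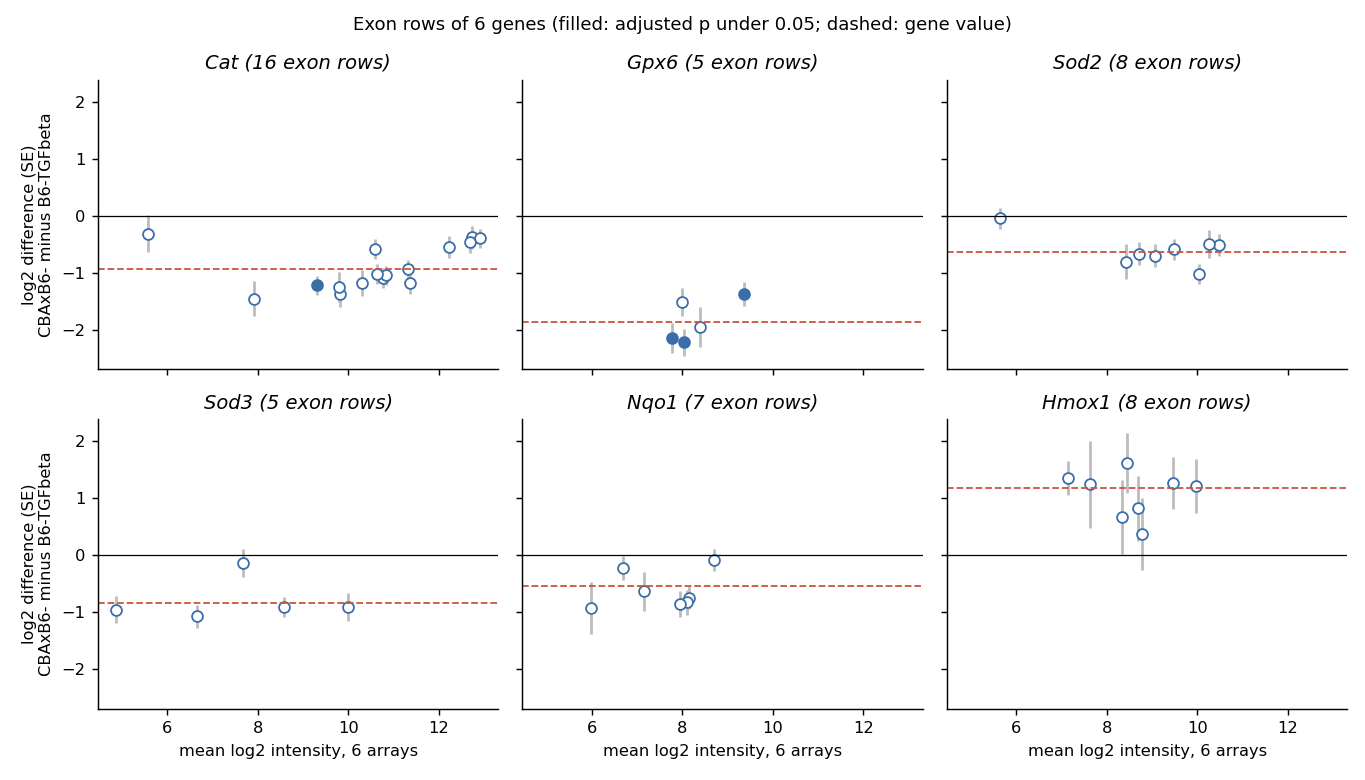
Exon rows of Cat, Gpx6, Sod2, Sod3, Nqo1 and Hmox1: log2 difference with its SE on the vertical axis against mean log2 intensity over 6 arrays. Filled points passed an adjusted p of 0.05 among all rows and the dashed line is the gene's own difference; the Cat rows brighter than 12.2 sit nearer to 0 than most of its dimmer rows.

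Genes whose profile over the 6 arrays lay closest to each enzyme were found by the root mean square difference between profiles centred on their own means, with unnamed transcripts left out. For Cat, whose values ranged over 1.11 log2 units, these were Sostdc1 (0.044 log2 units), Itpr2 (0.056) and Ace (0.056). Sostdc1 encodes a secreted antagonist of BMP and WNT signals, Itpr2 an inositol trisphosphate receptor and Ace the angiotensin-converting enzyme of the proximal tubule brush border. For Sod3 they were Dio1 (0.045), a selenium enzyme that activates thyroid hormone, Lhx1 (0.046) and Sgk2 (0.060). For Sod2 they were Idh3a (0.045), a subunit of the mitochondrial isocitrate dehydrogenase, Hagh (0.052), an enzyme of the glyoxalase system, and Prkcq (0.060).

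For Gpx6 the closest were Cndp1 (0.23), Itih5 (0.25) and Ugt1a6a (0.29), a looser match against its range of 2.50. For Hmox1 they were Serpina3g (0.17), Il34 (0.31), which encodes a ligand of the macrophage growth factor receptor, and Adam23 (0.34), against a range of 2.68. For Nqo1 they were Gnrh1 (0.067), Haao (0.074) and Snapc5 (0.082), and for Gpx3 Bco2 (0.011), Bahd1 (0.030) and Lnx1 (0.031). Gpx1, Gpx4 and Sod1 varied little, so that genes of small variation lay close to them: Defb48 (0.017), Vmn2r99 (0.022) and Myocd (0.025) for Gpx1, Arhgef1 (0.026), Itgb1bp1 (0.029) and Pcbp1 (0.031) for Gpx4, and V1rh21 (0.026), Wdr76 (0.028) and Cchcr1 (0.030) for Sod1. With 6 arrays in 2 groups, any gene that differs by a like amount between the groups lies close in this measure.

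The wider pathway was read through 12 lists with 181 distinct genes besides the 10 enzymes, some of them in several lists. Of these 27 passed, 22 lower and 5 higher, beside 4.57% of all genes lower and 3.08% higher, the background for each list below. The lists, too, were chosen with earlier results of these data known. With 1 array left out in turn, 0 to 11 of the 181 passed. Among 10 other glutathione peroxidases and peroxiredoxins, 2 were lower, none higher, and the median log2 difference was 0.03. At an unadjusted p under 0.05, 2 of these were higher and 2 lower in limma. The 2 that passed were the peroxiredoxins of mitochondria, Prdx3 at -0.69 (SE 0.13) and Prdx5 at -0.66 (SE 0.10), with adjusted p of 0.015 and 0.0060 in limma. Prdx5 read 10.33 ± 0.065 and 9.67 ± 0.12 (SD, n = 3 each). Among 16 genes of thioredoxins, glutaredoxins and methionine sulfoxide repair only Msra, a reductase of oxidised methionine, passed, at -0.48 (SE 0.096). That share is below the 7.65% of all genes. The thioredoxin reductase Txnrd1 stood at 0.15 (SE 0.11) without passing.

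Glutathione synthesis and recycling, which feeds the peroxidases, had 5 of 14 genes lower, none higher, and a median log2 difference of -0.42. At an unadjusted p under 0.05 9 were lower and 1 higher in limma. Gsr, the reductase that regenerates glutathione, fell from 10.19 ± 0.092 to 9.43 ± 0.067 (SD, n = 3 each), by 0.76 on the log2 scale (SE 0.097, adjusted p 0.0025 in limma). Dpep1 (-1.34, SE 0.15) and Ggt1 (-0.91, SE 0.13), both of the brush border and both cutting extracellular glutathione or its products, also passed, as did Hagh (-0.56, SE 0.12). Slc25a39, which carries glutathione into mitochondria, was the fifth. The enzymes that make glutathione did not pass. Gclc stood at -0.09 (SE 0.14), Gclm at -0.36 (SE 0.12) and Gss at -0.53 (SE 0.14), with adjusted p of 0.77, 0.106 and 0.0525 in limma.

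Of 12 genes that supply NADPH, 4 were lower and 1 higher, with a median of -0.24. The lower ones included Mthfd1 (-0.59, SE 0.11) of folate metabolism, the mitochondrial isocitrate dehydrogenase Idh2 (-0.49, SE 0.12) and the transhydrogenase Nnt (-0.44, SE 0.11), and the higher one was Mthfd2 (0.62, SE 0.15), the mitochondrial folate enzyme. Nnt, which makes NADPH in mitochondria and is known to lack exons in the C57BL/6J substrain, was checked row by row because the groups differ in background. Of its 20 rows 17 were lower and 3 higher in CBAxB6-TGFbeta, from -0.85 to 0.52, none passed in limma and 9 had an unadjusted p under 0.05. The labels do not name the substrain, and no row was higher past the threshold in the group with CBA ancestry.

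Of 12 genes for NRF2 and its regulators 1 was higher, a share near the 7.65% of all genes: Maff (0.56, SE 0.13), a small partner protein of NRF2, and none was lower, with the same counts of 1 and 0 at an unadjusted p under 0.05 in limma. Nfe2l2 itself stood at -0.17 (SE 0.10) and its repressor Keap1 at -0.09 (SE 0.11), neither passing, and both changed sign with other gene summaries. Of 31 other NRF2 targets, 6 were lower and 1 higher, with a median of -0.13. Cbr1, a carbonyl reductase, read 10.20 ± 0.27 and 8.83 ± 0.14 (SD, n = 3 each), which is a log2 difference of -1.36 (SE 0.15). Gsta3, a glutathione transferase, stood at -1.03 (SE 0.12) and the export pump Abcc2 at -0.73 (SE 0.12). In the other direction Akr1b8, an aldo-keto reductase, read 6.40 ± 0.56 and 8.07 ± 0.45 (SD, n = 3 each), which is a log2 difference of 1.67 (SE 0.29). Adjusted p was 0.0010 for Cbr1, 0.0019 for Gsta3, 0.0075 for Abcc2 and 0.0095 for Akr1b8 in limma.

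**Figure D4:**
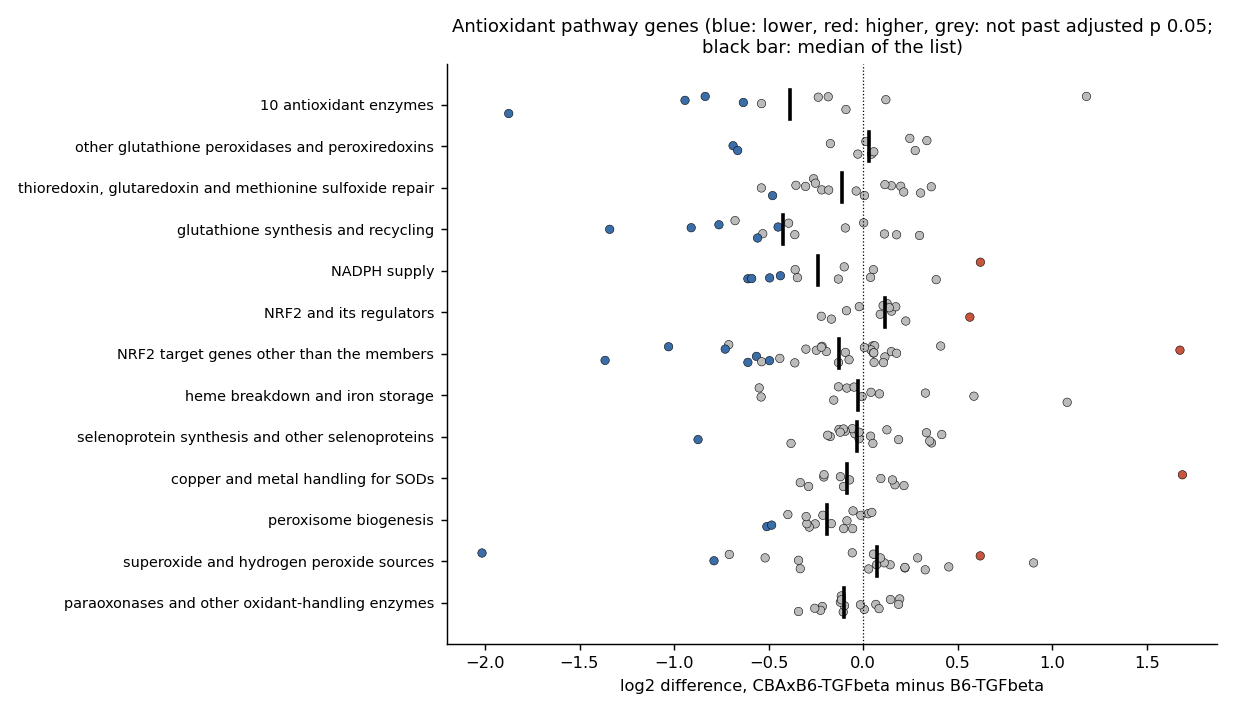
Log2 difference, CBAxB6-TGFbeta minus B6-TGFbeta, of each gene in the 12 pathway lists and the 10 enzymes, 1 point per gene. Blue and red mark genes lower or higher past an adjusted p of 0.05, grey those that did not pass, and the black bar the median; glutathione synthesis and recycling has the lowest median, -0.42, and the 10 enzymes follow at -0.39.

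Of 12 genes of heme breakdown and iron storage, the neighbours of Hmox1, none passed, while 3 were higher and 2 lower at an unadjusted p under 0.05 in limma. The nearest to passing were Alas1, the first enzyme of heme synthesis, at -0.55 (SE 0.16), and the macrophage receptor Cd163 at 0.59 (SE 0.18). Of 20 genes of selenoprotein synthesis and other selenoproteins, the machinery that some glutathione peroxidases need, only Dio1 passed, at -0.87 (SE 0.11). That share is below the 7.65% of all genes. Of 12 genes of copper and metal handling only the ferroxidase ceruloplasmin, Cp, passed, a share near the 7.65% of all genes. Cp read 8.95 ± 0.10 and 10.64 ± 0.35 (SD, n = 3 each), which is a log2 difference of 1.69 (SE 0.16, adjusted p 0.00079 in limma). Cp is also counted among the tubular injury markers above.

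Of 16 genes of peroxisome biogenesis, the organelle of catalase, 2 were lower, the import receptor Pex19 (-0.51, SE 0.090) and the fatty acid transporter Abcd3 (-0.48, SE 0.12), and the median was -0.19. Of 21 genes that make superoxide or hydrogen peroxide, 2 peroxisomal oxidases were lower, Hao2 (-2.02, SE 0.27) and Dao (-0.79, SE 0.11), and 1 was higher, the NADPH oxidase subunit Rac2 of leukocytes (0.62, SE 0.11). At an unadjusted p under 0.05 6 of these 21 were higher and 5 lower in limma. Among 16 paraoxonases and other oxidant-handling enzymes none passed, and none had an unadjusted p under 0.05 in limma. Ucp2 stood at -0.34 (SE 0.16) and Pon2 at 0.19 (SE 0.091).

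The count of enzymes past the threshold was 0 without B6-TGFbeta replicate 1, 2 or 3, with 5, 6 and 5 at an unadjusted p under 0.05 in limma. It was 3 without CBAxB6-TGFbeta replicate 4 and 2 without replicate 5 or 6. Over all genes these settings also called less, 57 to 554 genes against 1562. None of the 10 genes changed sign under any of its 18 alternative settings, and the 2 that changed the scale between arrays kept the same 4 calls.

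**Figure D5:**
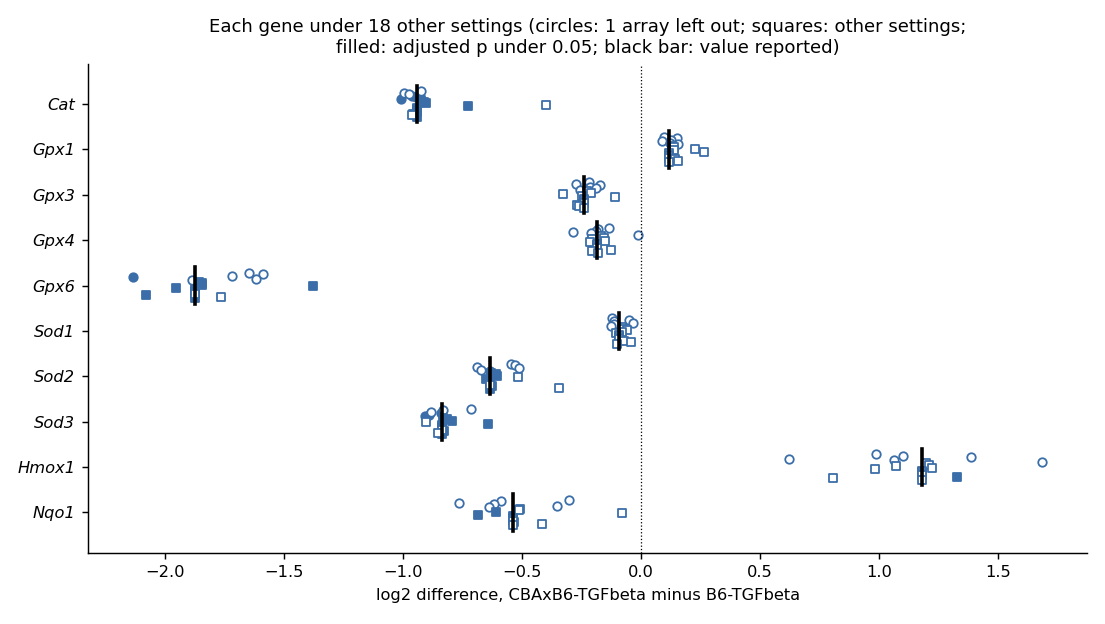
Log2 difference of each enzyme gene under 18 other settings; the black bar is the value reported, circles leave out 1 array and squares are other settings, filled where the adjusted p was under 0.05. No point crosses 0 for any of the 10 genes, while many circles for Cat, Gpx6, Sod2 and Sod3 are open.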

How the data were processed

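The deposited values are log2 intensities of 241576 Affymetrix probe sets on 6 arrays of mouse kidney RNA, 3 per group. RMA and Partek are the tools listed, per the submitters' processing notes; versions, settings, genome build and scan batches were not given in the sources used here. Rows with 1 symbol in the platform annotation (212097; 4475 had several and 25004 none, left out) were combined by Tukey's median polish into 20416 genes, with a median of 8 rows each. Differences, CBAxB6-TGFbeta minus B6-TGFbeta, were fitted with limma 3.58.1 in R 4.3.3 over all genes, with 1 group term, two-sided p-values, Benjamini-Hochberg adjustment, a threshold of 0.05 and 95% intervals. Exon rows were fitted alike over all rows. The number of arrays limits the precision. The fit was tested on simulated data.

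The 10 enzymes, 12 pathway lists and 14 marker lists were chosen with earlier results of these data known. Of 331 list entries 311 matched a measured gene, 17 by an older symbol. Named were the 10 enzymes; for each pathway list up to 4 passing genes, by smallest p, or 2 genes where none passed; Nnt, Nfe2l2, Keap1, Ccs and Txnrd1; the 3 nearest profiles of each enzyme; and markers on which a result turns. Slc25a39, Gclc, Gclm and Gss lie outside this rule. The marker lists without a result in the text gave 2 of 4 podocyte and 3 of 8 endothelial markers lower, 2 of 9 fibroblast and smooth muscle, 2 of 8 neutrophil and 1 of 7 T and B cell markers higher, and 0 of 6 erythroid and 0 of 6 skeletal muscle markers passing, with 3 and 0 at an unadjusted p under 0.05 in limma. Promoter windows and motifs come from RefSeq (GRCm38.p6), and the motifs were chosen after seeing the data. Alternatives covered the scale between arrays, the gene summary, dim rows and genes, variance moderation, array weights and arrays left out.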

Additional observations from a re-analysis of the deposited data

How the results depend on the processing

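No paired analysis was possible because the groups share no replicate numbers. Leaving out each array in turn gave log2 differences of -1.01 to -0.93 for Cat, -2.13 to -1.59 for Gpx6, -0.69 to -0.51 for Sod2 and -0.91 to -0.71 for Sod3, and counts past the threshold of 0 to 3 of the 10 enzymes, 0 to 11 of the 181 pathway genes, 0 to 0 of the 72 exon rows and 57 to 554 of all genes. The reported counts were 4, 27, 4 and 1562. Leaving out each array called 0 to 331 of all exon rows, against 1336 in the main fit. With the brightest row of each gene the counts were 1 enzyme, 15 pathway genes and 617 genes, with Cat at -0.40, Sod2 at -0.52 and Sod3 at -0.90, all short of the threshold. Without variance moderation they were 1, 0 and 63, and 0 rows, with 52 pathway genes and 35 rows at an unadjusted p under 0.05, and Gpx6 (-1.87), Sod2 (-0.63) and Sod3 (-0.84) missed the threshold. With array weights they were 6, 42 and 2243, and 10 rows, with Hmox1 at 1.33 and Nqo1 at -0.53 past the threshold. With B6-TGFbeta replicate 3 as the only array of its group they were 0, 0 and 40, and 0 rows, with 3 enzymes, 29 pathway genes and 18 rows at an unadjusted p under 0.05, and Cat at -0.96, Gpx6 at -1.77, Sod2 at -0.34 and Sod3 at -0.85. Nqo1 passed with the mean over rows (-0.61), without the dimmer 50% of rows (-0.68) and without the dimmest 25% of genes (-0.54). Rows past the threshold were 16 without the dimmest 25% of rows and 18 with a trended variance. Nfe2l2 turned to 0.0034 and Keap1 to 0.0062 with the mean over rows, and Keap1 to 0.057 with the brightest row. The causes were not tested, except that fewer arrays enter where some are left out. Removing the Gpx4 and Sod1 rows outside the main run of probe set numbers, chosen after seeing the data, left the 4 calls. Of the pathway genes named by the rule above, 336 values kept direction and side of the threshold over these settings, 184 lost a call, 4 gained one and 3 reversed. Of the counts per pathway list, 102 kept a like size and 102 moved.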
